A study of Mus musculus with 11 samples.

Results

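The genes described here are 10 genes of the p53 pathway: Trp53, which encodes p53 itself, and the p53 targets Cdkn1a, Mdm2, Bax, Ccng1, Ddb2, Btg2, Trp53inp1, Sesn1 and Sesn2. They were chosen by name, and a gene was measured through the probe sets annotated with its symbol and no other. By this rule 8 of the 10 genes were measured, with 71 probe sets, among 15803 genes and 194293 probe sets in all; Trp53 and Bax are not analysed here. RNA came from NSC34, a mouse line made by fusing neuroblastoma with embryonic spinal cord cells and used as a model of motor neurons, and was hybridised to 11 Affymetrix whole-transcript arrays. Arrays shTardbp 1 to 4 hold cells with a short hairpin that targets Tardbp. The controls are 4 arrays of cells whose hairpin targets GFP (shGFP 1, 2, 3 and 5) and 3 whose hairpin targets Renilla luciferase (shLuciferase 1, 2 and 4). All 3 groups were NSC34 cells transfected with the pSUPERIOR hairpin vector and taken through puromycin selection to stable clones. The labels do not say how many clones a group holds or whether its arrays came from separate cultures, and the p-values therefore rest on a spread between samples that may be technical. The series asks what loss of TDP-43, the RNA-binding protein encoded by Tardbp, does to transcripts in a motor-neuron-like cell. In the labels the code of every shTardbp array and of shLuciferase 4 begins with the letter P, and the code of each remaining array with C. The labels do not say what the letter means, and values with the letter as a block stand beside the calls they end. With that block the shTardbp difference rests on shLuciferase 4, the 1 control array of letter P. Its SE was then wider (for Tardbp against both controls 0.134 in place of 0.0722). Whether a call lost with the block reflects the letter was not tested.

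p53 is a transcription factor that is held at a low level by the ubiquitin ligase Mdm2 and accumulates after DNA damage and other stress. It then raises genes that stop the cell cycle (Cdkn1a, Btg2), repair DNA (Ddb2), restrain growth signalling (the sestrins Sesn1 and Sesn2), promote autophagy and cell death (Trp53inp1, Bax) and feed back on p53 itself (Mdm2, Ccng1). p53 is controlled mainly as a protein, so its targets' transcripts are often used as a readout of its activity, although each of them also answers to other factors.

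The sequences shown here are the hairpin target, which defines the shTardbp cells, and the promoters of the p53 targets that hold a p53 motif. The labels give the targeted Tardbp sequence as 25 bases.
Tardbp hairpin target: tctaagcaaagccccagacgagcct
RefSeq promoter windows of 300 bases (250 before and 50 after an annotated transcript start, GRCm38.p6) were at hand for 6 of the 8 genes, in 8 windows, since Cdkn1a and Sesn1 have a pair each; Ddb2 and Trp53inp1 had no entry. Both strands were searched for the p53 consensus decamer, the unit that occurs as a pair in p53 response elements; the motif reads the same on both strands. It was found in 4 of the 8 windows and in 8.36% of 32851 windows of all genes. These 4 windows follow, 5′ to 3′, with the decamer in capitals.
Cdkn1a, chr17:29090729-29091028, plus strand: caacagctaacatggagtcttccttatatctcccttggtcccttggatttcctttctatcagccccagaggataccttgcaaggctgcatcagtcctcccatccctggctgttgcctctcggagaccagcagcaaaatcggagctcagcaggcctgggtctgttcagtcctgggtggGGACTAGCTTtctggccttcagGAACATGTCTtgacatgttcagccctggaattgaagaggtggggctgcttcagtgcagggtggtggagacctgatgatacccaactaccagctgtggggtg
Mdm2, chr10:117710709-117711008, minus strand: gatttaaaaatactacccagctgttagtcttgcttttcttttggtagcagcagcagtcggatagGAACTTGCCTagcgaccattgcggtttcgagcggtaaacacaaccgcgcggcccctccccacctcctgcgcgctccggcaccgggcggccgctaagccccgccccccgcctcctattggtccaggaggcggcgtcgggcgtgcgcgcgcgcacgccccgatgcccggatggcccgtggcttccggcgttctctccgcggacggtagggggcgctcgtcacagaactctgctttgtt
Ccng1, chr11:40755237-40755536, minus strand: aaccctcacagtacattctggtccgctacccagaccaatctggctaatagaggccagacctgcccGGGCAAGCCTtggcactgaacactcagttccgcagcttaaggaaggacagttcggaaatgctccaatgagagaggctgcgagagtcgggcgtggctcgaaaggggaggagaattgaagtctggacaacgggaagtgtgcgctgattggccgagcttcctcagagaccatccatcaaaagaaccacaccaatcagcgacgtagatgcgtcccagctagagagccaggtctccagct
Sesn1, chr10:41887189-41887488, plus strand: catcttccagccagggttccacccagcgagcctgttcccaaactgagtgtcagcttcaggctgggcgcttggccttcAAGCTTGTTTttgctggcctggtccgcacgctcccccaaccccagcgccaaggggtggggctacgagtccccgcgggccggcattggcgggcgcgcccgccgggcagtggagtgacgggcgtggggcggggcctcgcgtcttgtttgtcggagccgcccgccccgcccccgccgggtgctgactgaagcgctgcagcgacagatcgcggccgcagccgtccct
The decamers began at -73 and -51 from the start in Cdkn1a (the upstream start of its pair), at -186 in Mdm2, at -185 in Ccng1 and at -173 in Sesn1. The windows of Btg2 and Sesn2, the other Cdkn1a window and the other Sesn1 window did not hold these letters. Directly after the -51 decamer of Cdkn1a came a near match, 1 letter off the consensus, which is not in capitals. The Mdm2 and Btg2 windows each held 1 near match too. With near matches counted, 5 of the 8 windows and 39.6% of all windows held a match. A match describes the sequence only and is not a measured binding site.

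Tardbp was lower on all 4 shTardbp arrays than on all 7 control arrays. Its gene value, the mean log2 signal of its probe sets, was 8.88 ± 0.0897 in shTardbp (SD, n = 4), 9.28 ± 0.146 in shGFP (n = 4) and 9.29 ± 0.0869 in shLuciferase (n = 3). The log2 difference from both controls was -0.40 (SE 0.0722, limma adjusted p = 0.000713), a call that was lost with the array letter as a block (-0.29, adjusted p = 0.173). The neuronal genes Prph, Stmn2 and Uchl1 had mean values of 11.1 to 12.5 in every group, but 3 of 16 measured neuronal markers (Chat and Slc5a7 of acetylcholine handling, and Mnx1) lay below the 25th percentile of probe sets on every array. Of the 16 neuronal markers 2 were higher in shTardbp against both controls (Slc18a3 and Isl2) and 0 lower. Over all genes 13.5% were higher and 17% lower in that comparison. Against shGFP 5 of the 16 were higher and 2 lower, and against shLuciferase 3 were higher and 0 lower. Between the control lines 2 were higher and 4 lower in shGFP, where 11.1% of all genes passed. The mean of the neuronal markers on an array was 8.45 to 8.63 in shTardbp, 8.37 to 8.47 in shGFP and 8.44 to 8.47 in shLuciferase. Among 6 measured glial markers 1 was called (Mbp, 0.24 higher on the log2 scale), and their mean on an array was 4.61 to 4.84 in shTardbp, 4.60 to 4.70 in shGFP and 4.60 to 4.69 in shLuciferase. Among 5 microglial markers limma called 0 (1 at an unadjusted p under 0.05), 3 of them (Aif1, Csf1r and Itgam) were below the 25th percentile on every array, and the mean was 4.66 to 4.82 in shTardbp, 4.55 to 4.80 in shGFP and 4.66 to 4.87 in shLuciferase. Among 7 fibroblast markers Dcn (-1.61) and Pdgfra (-0.92) were lower and Pdgfrb (0.41) higher in shTardbp, and the mean was 5.16 to 5.27 in shTardbp, 5.56 to 5.65 in shGFP and 5.42 to 5.49 in shLuciferase. Pdgfrb stood at 5.86 in shTardbp, 5.82 in shGFP and 5.07 in shLuciferase, and was not called higher against shGFP. The part of these markers in the results was not tested.

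The p53 targets did not move in one direction. Against the mean of the 2 control group means, 4 of the 8 genes were higher in shTardbp (Trp53inp1, Btg2, Ddb2 and Sesn1) and 3 were lower (Sesn2, Ccng1 and Cdkn1a) at a limma adjusted p under 0.05, and Mdm2 did not pass. Over all genes 30.5% passed, 13.5% higher and 17% lower, so calls are frequent in this comparison. The median log2 difference was 0.05 for the 8 genes and 0.01 for all genes. The arrays measure pooled RNA, in which fewer cells of a kind and less RNA per cell cannot be told apart. All shTardbp values lay above all 7 control values in 4 of the 8 genes, against 8.45% of all genes, and below them in 0 of the 8, against 9.82%; together 18.3% of all genes were apart in either direction.

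**Figure D1:**
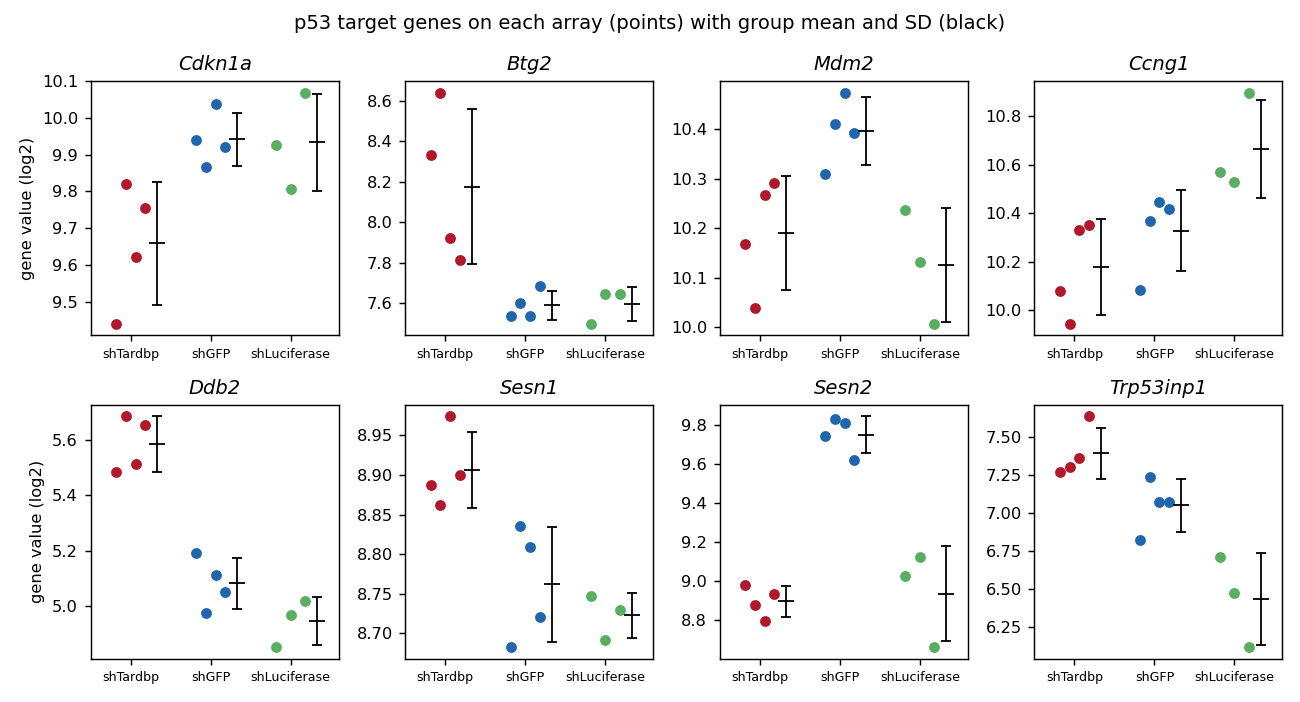
Gene values (log2, y axis) of the 8 measured p53 targets on each array, by hairpin (x axis), with the group mean and SD in black (n = 4, 4 and 3). The shTardbp points lie above all control points for Ddb2, Btg2, Trp53inp1 and Sesn1, and the shGFP points stand far above both other groups for Sesn2.

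Mdm2, the ubiquitin ligase that degrades p53 and is itself a p53 target, had gene values of 10.17, 10.04, 10.27 and 10.29 in shTardbp 1 to 4. They were 10.31, 10.41, 10.47 and 10.39 in shGFP 1, 2, 3 and 5 and 10.24, 10.13 and 10.01 in shLuciferase 1, 2 and 4. The shTardbp values lay below all shGFP values and overlapped those of shLuciferase. The log2 difference was -0.07 against both controls (SE 0.0675, 95% confidence interval -0.22 to 0.08, limma adjusted p = 0.532). It was -0.21 against shGFP (interval -0.37 to -0.04, limma adjusted p = 0.0594) and 0.07 against shLuciferase (interval -0.11 to 0.24, limma adjusted p = 0.673). The difference against shGFP passed under 7 of 19 alternatives, among them without shTardbp 4, shGFP 1 or shLuciferase 4 (adjusted p = 0.0489, 0.0492 and 0.0429). With the array letter as a block it shrank to -0.03 (adjusted p = 0.918).

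Ccng1 encodes cyclin G1, which works with the phosphatase PP2A and Mdm2 to restrain p53. Its values were 10.08, 9.94, 10.33 and 10.35 in shTardbp 1 to 4, 10.08, 10.37, 10.45 and 10.42 in shGFP and 10.57, 10.53 and 10.90 in shLuciferase. The shTardbp values were below all shLuciferase values and overlapped those of shGFP. Ccng1 fell by 0.32 on the log2 scale against both controls (SE 0.103, limma adjusted p = 0.0284) and by 0.49 against shLuciferase (SE 0.125, limma adjusted p = 0.00946), while against shGFP the difference was -0.15 (interval -0.40 to 0.10, limma adjusted p = 0.412). The call against both controls was lost with the shift of 25 neighbouring genes on each side subtracted (-0.22, adjusted p = 0.142), by taking the median of its probe sets (adjusted p = 0.0626), and without shTardbp 1, shTardbp 2, shGFP 3 or shLuciferase 4 (adjusted p = 0.0872, 0.110, 0.0523 and 0.0598); without shLuciferase 4 the call against shLuciferase was lost too (adjusted p = 0.0512). With the array letter as a block the difference was wider, -0.61 against both controls (adjusted p = 0.0355), -0.72 against shLuciferase (adjusted p = 0.00921) and -0.50 against shGFP (adjusted p = 0.148). The block rests on shLuciferase 4, which had the highest Ccng1 value of the 11 arrays (10.90). Of the 50 neighbouring genes of Ccng1, 2 were higher and 19 lower in shTardbp.

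Cdkn1a encodes p21, an inhibitor of cyclin-dependent kinases and the main effector of p53 in cell cycle arrest. Its values were 9.44, 9.82, 9.62 and 9.76 in shTardbp 1 to 4. In the controls they were 9.94, 9.87, 10.04 and 9.92 in shGFP and 9.93, 9.81 and 10.07 in shLuciferase. Every shTardbp value was below every shGFP value, and shTardbp 2 was just above the lowest shLuciferase value. Cdkn1a fell 1.21-fold (log2 -0.28, SE 0.0783, limma adjusted p = 0.0143), with log2 differences of -0.28 against shGFP (adjusted p = 0.0272) and -0.27 against shLuciferase (adjusted p = 0.0475). The call against both controls was lost without shTardbp 1 (-0.21, adjusted p = 0.0584), by taking the median of its probe sets (adjusted p = 0.122), without dim probe sets (adjusted p = 0.0518) and with the array letter as a block (-0.45, adjusted p = 0.0502). Against shGFP it was lost without shTardbp 1, shTardbp 3, shGFP 1 or shGFP 3 (adjusted p = 0.0845, 0.0694, 0.0511 and 0.083), by taking the median of its probe sets (0.126), with the neighbours' shift subtracted (0.0529) and with the array letter as a block (-0.48, adjusted p = 0.0818). Against shLuciferase it passed under 7 of 19 alternatives and was lost without shTardbp 1 or 3, any 1 shGFP array, or shLuciferase 1 or 4 (adjusted p = 0.0528 to 0.172). The call against shLuciferase was also lost by taking the median of its probe sets (-0.22, limma adjusted p = 0.319). Without dim probe sets it was lost too (-0.22, limma adjusted p = 0.197). The same held with the neighbours' shift subtracted (0.0534) and with the replicate number as a block (0.0768).

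Btg2, an antiproliferative adaptor of the CCR4-NOT deadenylase, had values of 8.33, 8.64, 7.92 and 7.81 in shTardbp 1 to 4. In shGFP they were 7.54, 7.60, 7.54 and 7.69, and in shLuciferase 7.50, 7.65 and 7.65. All shTardbp values were above all controls, and they were spread far more widely (SD 0.381) than those of shGFP (SD 0.0703) or shLuciferase (SD 0.0840). Btg2 rose 1.50-fold (log2 0.58, SE 0.126, limma adjusted p = 0.00269), and by about the same amount against shGFP (0.59, adjusted p = 0.00621) and shLuciferase (0.58, adjusted p = 0.0118). Its calls were lost with the array letter as a block against both controls (0.52, adjusted p = 0.191), shGFP (adjusted p = 0.299) and shLuciferase (adjusted p = 0.143). The call against shLuciferase was also lost, at the threshold itself, without shLuciferase 1 (0.53, adjusted p = 0.05002).

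Ddb2 encodes the subunit that recognises damaged DNA in global nucleotide excision repair. Its values were 5.49, 5.69, 5.51 and 5.66 in shTardbp 1 to 4. They were 5.19, 4.98, 5.11 and 5.05 in shGFP and 4.85, 4.97 and 5.02 in shLuciferase. All shTardbp values were above all controls, and Ddb2 rose 1.49-fold (log2 0.57, SE 0.0651, limma adjusted p = 1.68e-05). The log2 rise was 0.50 against shGFP (adjusted p = 0.00015) and 0.64 against shLuciferase (adjusted p = 4.71e-05). The signal was low: 4 of its 13 probe sets were above the 25th percentile of all probe sets on every array. With the array letter as a block the rise against both controls still passed (0.48, adjusted p = 0.0177), while that against shGFP did not (0.39, adjusted p = 0.0957). Of the 50 neighbouring genes of Ddb2, 13 were higher and 1 lower in shTardbp, with a median log2 difference of 0.08; with their shift subtracted the rise was 0.44.

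Trp53inp1 encodes a stress-induced protein that promotes p53 phosphorylation and autophagy. Its values were 7.27, 7.30, 7.36 and 7.63 in shTardbp 1 to 4, 6.82, 7.24, 7.07 and 7.07 in shGFP and 6.71, 6.47 and 6.12 in shLuciferase. The 3 groups formed 3 separate levels, with shTardbp the highest and shLuciferase the lowest. Trp53inp1 had the largest rise among the 8 genes, 1.57-fold (log2 0.65, SE 0.112, limma adjusted p = 0.000505). The rise was 0.96 on the log2 scale against shLuciferase (adjusted p = 0.000143), and the difference against shGFP was 0.34 (interval 0.07 to 0.61, adjusted p = 0.0592). The difference against shGFP passed under 8 of 19 alternatives, among them without shGFP 2, shLuciferase 1 or shLuciferase 4 (adjusted p = 0.0402, 0.0370 and 0.0256) and with the array letter as a block (0.82, adjusted p = 0.0247). That block also widened the rise against both controls to 1.04 (adjusted p = 0.00223). The block rests on shLuciferase 4, which had the lowest Trp53inp1 value of the 11 arrays (6.12). Among 48 neighbouring genes 3 were higher and 21 lower in shTardbp, with a median log2 difference of -0.14, so the rise of Trp53inp1 ran against its neighbours.

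The sestrins are stress-induced proteins that restrain the growth kinase mTORC1. Sesn1 had values of 8.89, 8.86, 8.97 and 8.90 in shTardbp 1 to 4, 8.68, 8.84, 8.81 and 8.72 in shGFP and 8.75, 8.69 and 8.73 in shLuciferase. All shTardbp values were above all controls, by a small margin. Sesn1 rose 1.12-fold (log2 0.16, SE 0.0539, limma adjusted p = 0.0327), and its pooled SD within groups, 0.0550, stood at the percentile of 2.94 among all genes. Its log2 differences were 0.14 against shGFP (adjusted p = 0.0997) and 0.18 against shLuciferase (adjusted p = 0.0543), neither past the threshold; without shGFP 1 the difference against shLuciferase passed (adjusted p = 0.0474). The call against both controls was lost without shTardbp 1, 3 or 4, shGFP 5, or shLuciferase 1 or 2 (adjusted p = 0.0502 to 0.123), by taking the median of its probe sets (0.0604), with the neighbours' shift subtracted (0.0665), with the replicate number as a block (adjusted p = 0.109) and with the array letter as a block (adjusted p = 0.336).

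Sesn2, which besides p53 answers to the integrated stress response factor ATF4, had values of 8.98, 8.88, 8.79 and 8.93 in shTardbp 1 to 4. In shGFP they were 9.75, 9.83, 9.81 and 9.62, and in shLuciferase 9.03, 9.12 and 8.66. The shTardbp values lay below all shGFP values and inside the range of shLuciferase. Sesn2 fell 1.81-fold against shGFP (log2 -0.86, SE 0.0942, limma adjusted p = 1.55e-05), and the difference against shLuciferase was -0.04 (interval -0.26 to 0.18, adjusted p = 0.863). Its fall against both controls (log2 -0.45, SE 0.0838, limma adjusted p = 0.00092) thus averaged these unequal differences. With the array letter as a block the calls against both controls (-0.10, adjusted p = 0.589) and against shGFP (-0.44, adjusted p = 0.0511) were lost.

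Against each control line by itself, fewer of the genes passed. Against shGFP 2 were higher (Btg2 and Ddb2) and 2 lower (Sesn2 and Cdkn1a), where 27.9% of all genes passed. Against shLuciferase 3 were higher (Trp53inp1, Ddb2 and Btg2) and 2 lower (Ccng1 and Cdkn1a), where 26.1% of all genes passed. Ddb2 and Btg2 rose and Cdkn1a fell against each control, 3 of the 8 genes, against 17.1% of all genes; the comparisons share the shTardbp arrays. The control lines themselves differed in 3 of the 8 genes, where 11.1% of all genes passed. Sesn2 was 1.76-fold higher in shGFP than in shLuciferase (log2 0.82, SE 0.102, limma adjusted p = 0.000145), Trp53inp1 1.53-fold (0.61, SE 0.136, adjusted p = 0.00939) and Mdm2 1.21-fold (0.27, SE 0.0819, adjusted p = 0.0487). The Mdm2 call was lost without any 1 of shTardbp 1, 3 and 4, shGFP 2, 3 and 5, and shLuciferase 2 and 4 (adjusted p = 0.0531 to 0.160), and with the array letter as a block (0.21, adjusted p = 0.160). It was also lost by taking the median of the probe sets (limma adjusted p = 0.0857) and without dim probe sets (0.0679). With the replicate number as a block the calls of Mdm2 and Trp53inp1 were lost (adjusted p = 0.255 and 0.0947). Within the arrays of letter P, all 4 shTardbp values were below shLuciferase 4 for Cdkn1a and Ccng1 and above it for the other 6 genes, Sesn2 and Mdm2 included. shLuciferase 4 had the lowest value of all 11 arrays for Sesn2, Mdm2 and Trp53inp1 and the highest for Ccng1 and Cdkn1a.

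**Figure D2:**
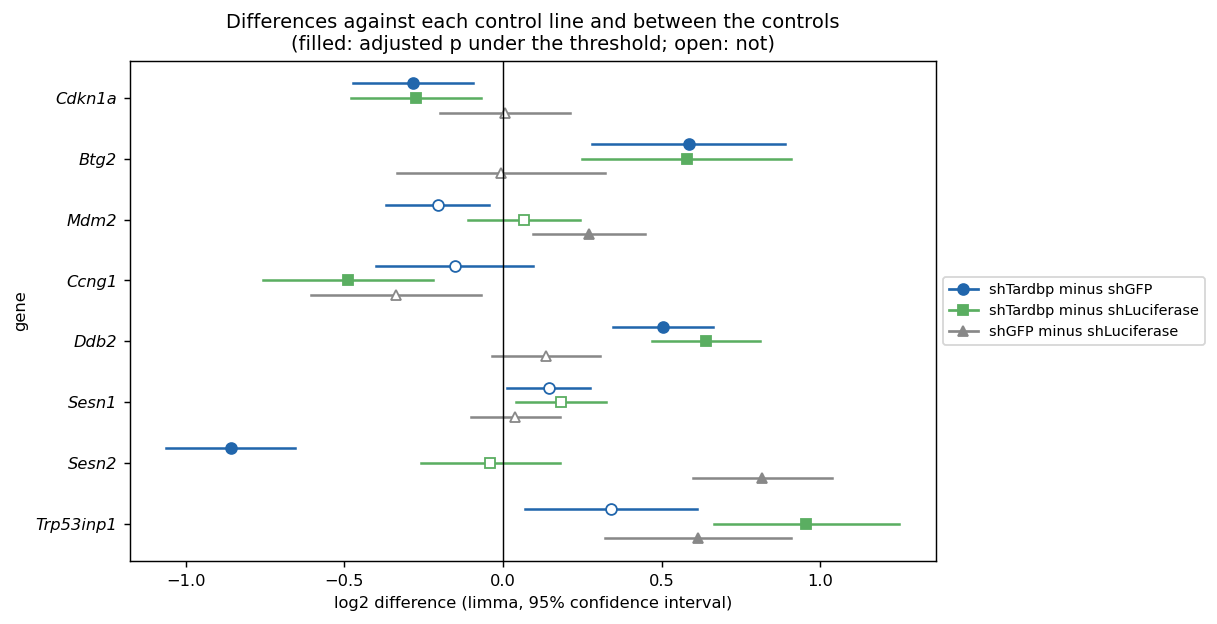
Log2 differences (x axis, with 95% confidence intervals from limma) of each gene (y axis) against each control line and between the control lines; filled symbols passed at a limma adjusted p under 0.05. Cdkn1a, Btg2 and Ddb2 have filled symbols on the same side against each control, and for Sesn2 the difference between the controls (0.82) is nearly as wide as that of shTardbp against shGFP (-0.86).

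The probe sets of a gene mostly had differences of the same sign. Tested one by one, 21 of the 71 probe sets passed, 15 higher and 6 lower in shTardbp, against 15.4% of all probe sets. All 5 Cdkn1a probe sets had log2 differences below 0 (-0.34 to -0.20), but limma called 0 of them (2 at an unadjusted p under 0.05). So did all 9 Sesn2 probe sets (-1.12 to -0.13, 5 called) and 8 of 9 Ccng1 probe sets (-0.49 to 0.03, 1 called). All 4 Btg2 probe sets (0.38 to 0.74, 3 called) and all 6 of Trp53inp1 (0.33 to 1.01, 3 called) had differences above 0. For Ddb2 12 of 13 were above 0 and 7 were called, up to 1.02 on the log2 scale at a probe set with means of 7.91 in shTardbp, 6.98 in shGFP and 6.80 in shLuciferase. The brightest Ddb2 probe set, with means of 7.89 in shTardbp, 7.81 in shGFP and 7.44 in shLuciferase, was not called. Its log2 difference was 0.27 against both controls (limma adjusted p = 0.258) and 0.08 against shGFP. Dim probe sets were among the 7 called. Sesn1 had 10 of 12 above 0 with 2 called, and Mdm2 4 above and 9 below 0, of which limma called 0 (0 at an unadjusted p under 0.05). The widest single fall, -1.12 in Sesn2, was that of a dim probe set (mean 4.49 in shTardbp, 6.48 in shGFP and 4.72 in shLuciferase).

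**Figure D3:**
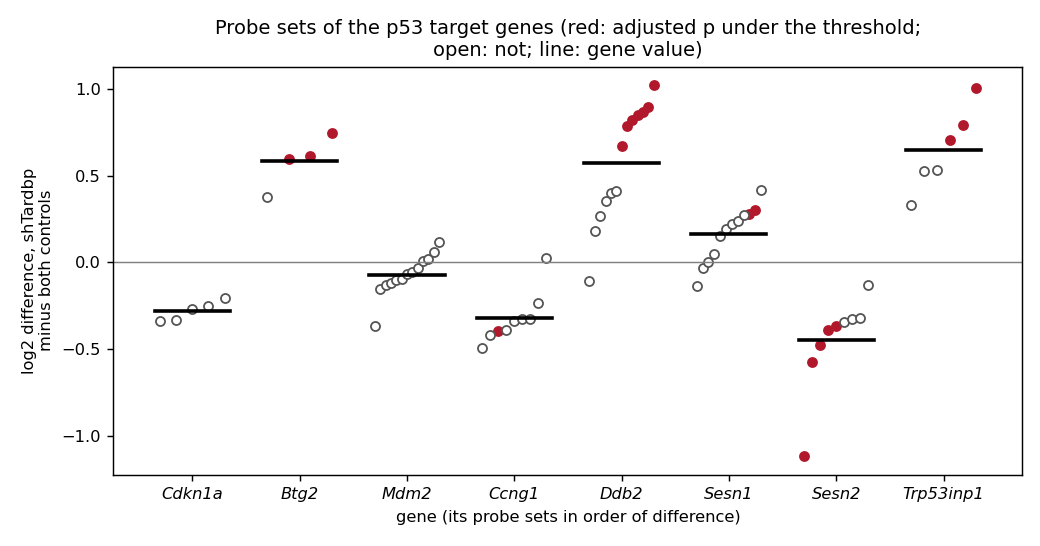
Log2 difference of each probe set (shTardbp minus both controls, y axis) by gene (x axis), with called probe sets in red and the gene value as a line. Probe sets of Cdkn1a and Sesn2 all lie below 0 and those of Btg2 and Trp53inp1 all above it, while those of Mdm2 straddle 0.

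The genes whose values followed those of the 3 genes called against each control were found by the root mean square difference over the 11 arrays, after each gene's own mean was subtracted. For Cdkn1a these were Ksr1, a scaffold of the RAF kinase pathway (0.0457), and the arginine methyltransferase Carm1 (0.0747). For Ddb2 they were the deiminase gene Padi4 (0.0634) and the receptor tyrosine kinase gene Ltk (0.0681). For Btg2 they were S100a14 (0.123) and Madcam1 (0.127), farther off than the others. Padi4, S100a14 and Madcam1 were dim in the controls, with group means of 4.39 to 4.56. The 25th percentile of probe sets was 4.46 to 4.57 over the arrays.

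Against the mean of both controls, other p53 targets were called about as often as genes in general. Of 26 on the list 23 were measured, 2 of them higher, 5 lower and 16 not past the threshold, where 30.5% of all genes passed (13.5% higher and 17% lower), with a median log2 difference of 0.06 against 0.01 for all genes. Against shGFP 1 was higher and 4 lower, where 27.9% of all genes passed. Against shLuciferase 4 were higher and 2 lower, where 26.1% of all genes passed. The genes lower against shGFP were not those lower against shLuciferase, and only Ephx1 was higher against each control. Gadd45a, a growth arrest and repair gene, had the largest fall of these (log2 -0.42, SE 0.0630, limma adjusted p = 0.000165), but its direction depended on the control: it was at 7.03 in shTardbp, 8.28 in shGFP and 6.61 in shLuciferase, and so fell by 1.25 against shGFP and rose by 0.41 against shLuciferase. Ephx1, an epoxide hydrolase of detoxification, rose 1.41-fold (0.49, SE 0.116, adjusted p = 0.00483). Lrdd, the older name of Pidd1 (a death domain adaptor), fell (-0.27, adjusted p = 0.00978), as did Ei24 (-0.24, adjusted p = 0.0110), and both calls were lost with the array letter as a block (adjusted p = 0.512 and 0.548) and by taking the median of the probe sets (0.112 and 0.0860), that of Ei24 also with the neighbours' shift subtracted (0.0871). Lrdd did not pass against shLuciferase (-0.20, limma adjusted p = 0.117), and Ei24 did not pass against shGFP (-0.17, limma adjusted p = 0.106). The cell death genes Bbc3 and Pmaip1, known as Puma and Noxa, stood at log2 differences of 0.10 and 0.09 and did not pass.

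Among 20 measured regulators and partners of p53, 3 were higher and 2 lower, where 30.5% of all genes passed, with a median of 0.01 against 0.01 for all genes. Chek1, the checkpoint kinase that acts when replication stalls, fell 1.65-fold (log2 -0.72, SE 0.0676, limma adjusted p = 3.13e-06). Trp53bp1, which encodes a p53-binding protein of double-strand break repair, rose 1.57-fold (0.65, SE 0.0609, adjusted p = 3.25e-06). Ppp1r13b, which encodes the p53 cofactor ASPP1, rose 1.59-fold (0.67, SE 0.0671, adjusted p = 5.76e-06), and the lysine methyltransferase gene Setd7 rose 1.36-fold (0.45, adjusted p = 4.97e-05). Chek1 was below, and the other 3 above, all control values, as were 9.82% and 8.45% of all genes. Mdm4, the partner of Mdm2, had a log2 difference of 0.06 and did not pass.

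Among 15 paralogs of the p53 targets, 7 were higher and 1 lower, where 13.5% of all genes were higher and 17% lower, with a median log2 difference of 0.19 against 0.01 for all genes. The count depended on the control. Against shGFP 3 were higher and 1 lower, where 27.9% of all genes passed. Against shLuciferase 7 were higher and 1 lower, where 26.1% of all genes passed. Bok, a relative of Bax, rose 1.55-fold (0.63, SE 0.0844, adjusted p = 6.27e-05) and Trp53inp2 1.47-fold (0.56, SE 0.0817, adjusted p = 0.000134), while Bak1, the close functional partner of Bax, fell 1.43-fold (-0.51, SE 0.0796, adjusted p = 0.000219). Cdkn1b, which encodes the p21 relative p27, rose 1.25-fold (0.32, adjusted p = 0.0104). It passed against shLuciferase (0.44, limma adjusted p = 0.00668) but not against shGFP (0.21, limma adjusted p = 0.131). With the array letter as a block 3 of these genes passed, 2 higher and 1 lower, where 2509 of 15803 genes passed in place of 4825. The calls of Trp53inp2 (adjusted p = 0.154) and Cdkn1b (adjusted p = 0.702) were lost with that block.

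Genes known to be lowered by p53 through p21 and the DREAM repressor complex were lower almost throughout. The list had 18 measured genes, of which 17 fell in shTardbp and 0 rose, where 17% of all genes fell and 13.5% rose, with a median log2 difference of -0.54 against 0.01 for all genes. Of the 18 genes 15 lay below all control values, as did 9.82% of all genes. The activating factor Mybl2 fell 2.13-fold (-1.09, SE 0.0835, adjusted p = 5.50e-07) and Cdc20, an activator of the anaphase-promoting complex, 2.19-fold (-1.13, SE 0.0881, adjusted p = 6.27e-07). The mitotic kinase gene Aurka (-0.72) and the cytokinesis kinesin gene Kif23 (-0.63) fell as well. Cdkn1a itself had a log2 difference of -0.28 against both controls, a call that passed under 15 of 19 alternatives. With the array letter as a block 14 of these genes passed, where 1286 of 15803 genes were lower. Whether p53 or Cdkn1a had a part in these falls was not tested. Between the control lines limma called 0 of the 18 genes (2 at an unadjusted p under 0.05).

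**Figure D4:**
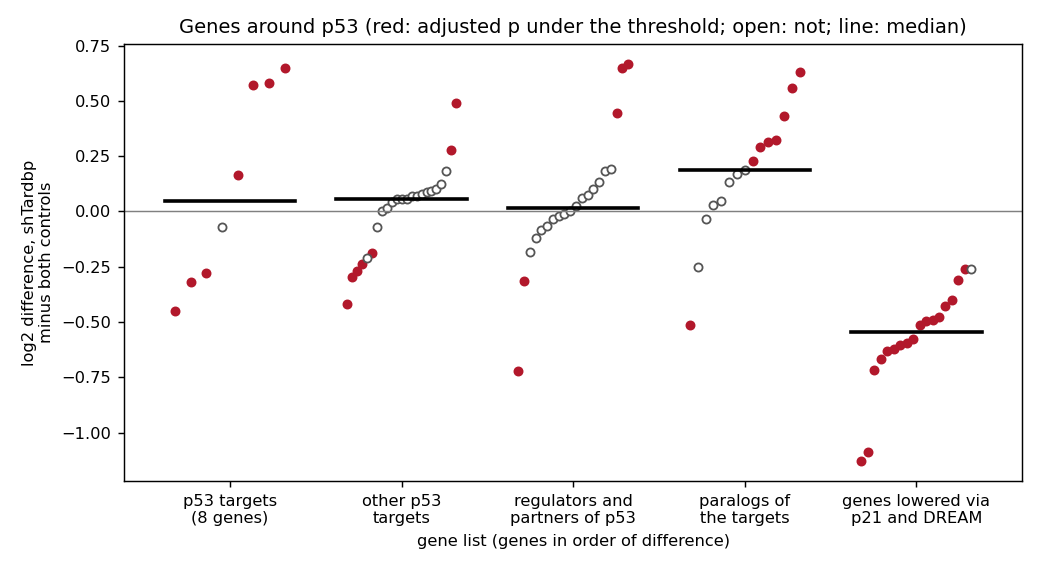
Log2 difference (shTardbp minus both controls, y axis) of the genes of each list (x axis), with called genes in red and the list's median as a line. The 8 p53 targets spread to both sides of 0 (median 0.05), whereas genes lowered through p21 and DREAM lie below it (median -0.54).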

How the data were processed

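The deposited values were log2 expression values of probe sets, 1 column per array, made by the authors with Partek and RMA per the submitters' processing notes; neither the settings of these steps nor a genome build is stated there (not given in the sources used here). Of 194293 probe sets, the platform annotation gave 179496 a single gene symbol, 1328 several and 13469 none. Single-symbol probe sets were averaged per gene (15803 genes). One limma model (version 3.58.1, R 4.3.3; lmFit, eBayes) with 3 group means was fitted to all genes, and one to all probe sets, with no filter on low values, with Benjamini-Hochberg adjustment over the whole table (threshold 0.05). Contrasts set shTardbp against the mean of both control means and against each control, and shGFP against shLuciferase. The number of arrays limits the precision. Neighbours came from the gene order of the RefSeq gene table (GRCm38.p6), in which 15766 genes had a place. The tests were tried on simulated data first. The genes and lists were chosen with earlier results of these data known. Named genes were all measured p53 targets, Tardbp, at most 4 called genes per list in order of adjusted p, and the 2 genes nearest in pattern to each target called against each control; Bbc3, Pmaip1, Mdm4 and the marker genes were named after their values were seen. No 2 arrays held identical values. Replicate numbers were not taken to pair arrays: deviations of 8 same-numbered pairs correlated at -0.06 to 0.26, 5 of them above 0.1. Alternatives for the lists, chosen after seeing the data, repeated those for the targets: other probe set summaries, filters, quantile normalization, blocks, array weights, the shift of neighbouring genes and leaving out each array.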

Additional observations from a re-analysis of the deposited data

Results flagged for a closer look

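Of the 8 measured p53 targets, 3 differed between the control lines, where 11.1% of all genes passed. For these 3 the shTardbp difference against one control is not that against the other. Sesn2 differed by 0.82 on the log2 scale (shGFP minus shLuciferase, limma adjusted p = 0.000145), Trp53inp1 by 0.61 (adjusted p = 0.00939) and Mdm2 by 0.27 (adjusted p = 0.0487). The Mdm2 call passed under 7 of 19 alternatives. No array stood far from the others of its group by Dixon's test in any of the 16 groups of 4 arrays examined, a test that chance alone trips in about 5% of groups; shLuciferase, with 3 arrays, was not tested.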

How the results depend on the processing

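Of 661 values of single genes under the alternatives (the 8 p53 targets and Tardbp), 561 kept their direction and their side of the threshold, 63 lost a call, 21 gained one and 16 changed sign, none of the 16 with a call on either side. With the array letter as a block 2509 of 15803 genes passed against both controls in place of 4825. With that block 3 p53 targets passed against both controls (Trp53inp1, Ddb2 and Ccng1), and 4 probe sets of the targets. Against shGFP 1 target passed, and 1 in the same direction against each control, in both cases Trp53inp1. Ddb2, Btg2 and Cdkn1a, the 3 genes called against each control without the block, did not pass against shGFP with it. With the median of the probe sets 4 p53 targets passed against both controls. Quantile normalization again and array weights each gave 7 against shGFP and 5 against each control. With the replicate block 1 target differed between the controls (3 without it), Sesn2; it also ended the calls of Sesn1 against both controls and of Cdkn1a against shLuciferase (adjusted p = 0.109 and 0.0768), and ended no other call of the targets. Leaving out each array gave 4093 to 4984 genes, 4 to 7 targets against both controls, 3 to 6 against shGFP, 3 to 5 against shLuciferase, 2 to 3 against each control, 2 to 3 between the controls and 14 to 22 probe sets; the count of 4 came without shTardbp 1, and 3 against shLuciferase without shLuciferase 1 or 4. Other p53 targets passed in 3 (median of the probe sets, or array letter as a block) or 4 (without shTardbp 3) in place of 7, and paralogs in 3 in place of 8 (array letter). The sign changed for Mdm2 against both controls (0.078, array letter). It changed for Sesn2 against shLuciferase (0.24 with the array letter, 0.044 with the median of the probe sets, and -0.18 to 0.052 over left-out arrays, turning without shLuciferase 1 or 2). Between the controls it changed for Sesn1 (-0.019) and Cdkn1a (-0.024) with the neighbours' shift subtracted, for Cdkn1a over left-out arrays (-0.057 to 0.075, turning without shGFP 3 or shLuciferase 2), and for Btg2 (0.058 with the median of the probe sets, 0.018 with the array letter, 0.029 with array weights, and -0.055 to 0.018 over left-out arrays, turning without shGFP 1 or 3 or shLuciferase 2 or 4). Ddb2 could not be tested among genes above the median level. The cause of these changes was not tested.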
